A study of Solanum lycopersicum with 36 samples.

Results

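A group of 150 genes in tomato leaves stood high at 0 h, was low at 3 h and was high again at 24 h in each of 2 independent sets of wild type plants. The genes were picked on those wild type libraries alone, out of 29285 genes in the deposited table, and the 16976 genes that averaged 50 normalised reads or more at 0 h in each wild type set were eligible. For every eligible gene the depth of the dip was taken as the lower of its 0 h and 24 h levels minus its 3 h level, on the log2(group mean + 1) scale. The smaller of the depths in both sets was its score. A score above 0.5 was reached by 674 genes, and the 150 highest, called members here, are described. The score is a measured value, so the depth of the dip in the wild types is a description and carries no test. None of the libraries of the lines SGT2ox and SGT1ami entered the choice. Changes between time points are tested in these lines, while their depth of the dip is described without a test.

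The plants were of the dwarf tomato cultivar Micro-Tom (Solanum lycopersicum), aged about a month. Leaves harvested were the third and the fourth. The lines SGT2ox and SGT1ami belong to separate experiments, each with wild type plants of its own. The endings ox and ami are taken to stand for overexpression of SGT2 and for a designed microRNA directed at SGT1. Both genes encode sterol glycosyltransferases, which add sugar to the sterols of membranes, as background from earlier work. Each of the 4 sets has 3 libraries at 0, 3 and 24 h, which makes 36 libraries in 12 groups. Promoters, the number of independent transformants behind a line and any pooling of plants were not found in the labels. Growth was at 25 °C by day and 22 °C by night with 16 h of light, and part of the plants went to a chamber at 4 °C. The labels of a library give its time and genotype but no temperature, and no library is marked as a control of the same hour. Temperature, time of day and handling therefore cannot be told apart in any change with time below.

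Plant leaves change the level of many transcripts within hours of a move to the cold, and many leaf transcripts also cycle over the day under the circadian clock and the light. The level of a transcript falls within hours when its synthesis slows and the existing molecules are broken down fast. Samples taken a day apart share an hour of the day, while a sample taken a few hours after the start does not.

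The gene identifiers are not paired with names in the deposited table, and 0 of the 29285 were found among 41476 entries of a RefSeq gene list. No name, role or sequence is therefore given for a member, and leaf or other tissue markers could not be looked up. The libraries held 36602841 to 43742623 reads recovered from the deposited values. Replicates were alike, with a median coefficient of variation of the members of 4.5% to 5.7% in the groups of 0 h and 24 h and 8.1% to 13% in those of 3 h, where the members were low.

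The libraries labelled SGT1ami at 24 h went against their label. At both 0 h and 3 h, 22 genes were at least 8-fold apart between SGT1ami and its wild type, and 0 of these 22 were 8-fold apart at 24 h, where 19 lay within 2-fold of the wild type. In SGT2ox 25 genes met the same criterion and 18 of them were still 8-fold apart at 24 h. None of these genes was a member. The 3 libraries of SGT1ami at 24 h are named by their label throughout, and every result that uses them carries this doubt. The results for SGT1ami at 0 h and 3 h rest on other libraries, and without the labelled 24 h libraries in the fit the count of members lower at 3 h in SGT1ami was 148, as with them.

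How did the members look in the wild types that chose them? Their median level was 643.5, 128 and 923 normalised reads at 0, 3 and 24 h beside SGT2ox. Beside SGT1ami it was 469, 168 and 773. The median eligible gene stood at 687, 697 and 737 in the first of these sets and at 707, 722 and 741 in the other, so the members started somewhat below the typical eligible gene. In log2 units the dip was 1.17 to 6.98 deep beside SGT2ox, with a median of 2.06, and 1.16 to 4.20 deep beside SGT1ami, with a median of 1.5. The wild type of SGT2ox had the shallower dip, and so set the score, for 26 members, and that of SGT1ami did so for the rest. At the edge of the choice the scores lay close together, at 1.157 and 1.156 for the last genes taken and 1.153 and 1.151 for the next ones left out.

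The highest score belonged to Solyc01g096790. Its wild type levels were 248 ± 33.2, 3.25 ± 3.05 and 47.2 ± 7.68 at 0, 3 and 24 h beside SGT2ox, and 74.1 ± 9.73, 1.29 ± 1.12 and 31.5 ± 8.44 at 0, 3 and 24 h beside SGT1ami (normalised reads, mean ± SD, n = 3). The gene was near 0 at 3 h and came back to part of its 0 h level. Solyc06g005680 was next, with 493 ± 39.8, 1.55 ± 2.69 and 197 ± 10.2 at 0, 3 and 24 h in the wild type of SGT2ox and 285 ± 31.7, 38.9 ± 2.39 and 472 ± 79.6 at 0, 3 and 24 h in the wild type of SGT1ami (n = 3). In the first of these sets it stayed below its 0 h level at 24 h, and in the other it exceeded it.

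**Figure D1:**
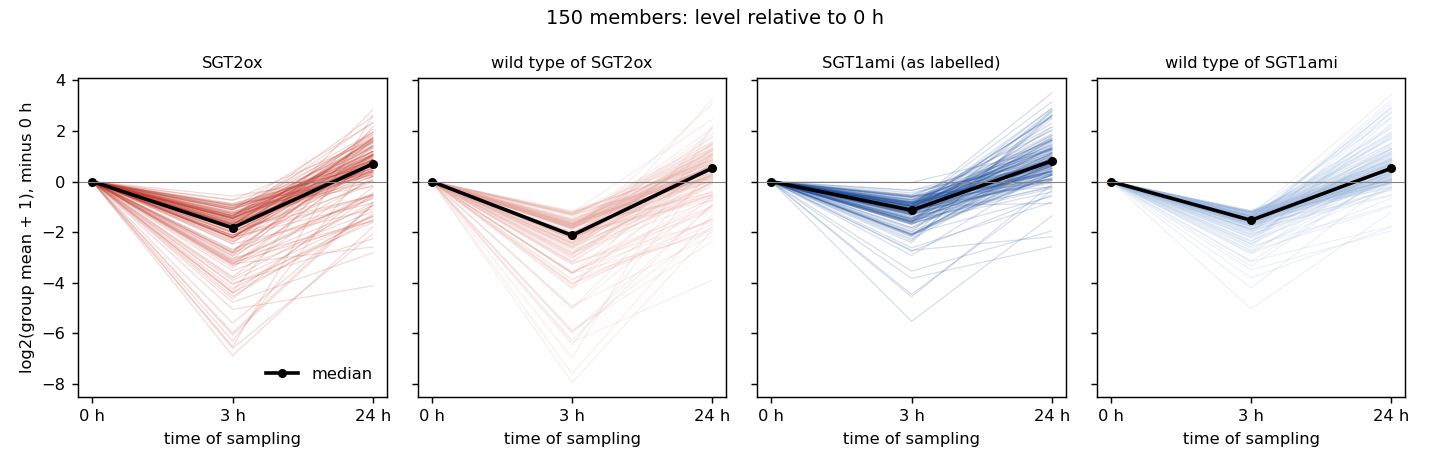
Level of each of the 150 members at 0, 3 and 24 h as log2(group mean + 1) minus its value at 0 h, with 1 thin line per gene and the median in black, for each line and its wild type (3 libraries per group). The medians at 3 h lie at -1.83 in SGT2ox, -2.13 in its wild type, -1.13 in SGT1ami and -1.53 in its wild type. All 4 medians are above 0 at 24 h, that of SGT1ami as labelled.

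Did the same genes fall in the lines? In SGT2ox all 150 members were lower at 3 h than at 0 h by limma at an adjusted p of 0.05, among 22399 genes tested of which 31.6% were lower. The highest adjusted p of a member was 6.2e-05. The median log2 fold change was -1.84, a 3.58-fold fall, and the members ranged from -6.96 to -0.57, while the median over all tested genes was 0. At least 2-fold lower were 140 members (11.1% of tested genes) and at least 4-fold lower 65 (3.58%). In bulk leaf RNA fewer cells of a type and less RNA per cell cannot be told apart. In SGT1ami 148 of the 150 members were lower at 3 h, among 22286 genes of which 31.7% were lower. Their median was -1.14, a 2.20-fold fall, with a range from -5.64 to -0.04, beside -0.02 over all tested genes. At least 2-fold lower were 95 members (5.14% of tested genes) and at least 4-fold lower 21 (0.812%). All 150 members passed the filter on low values in both experiments, each of which holds the wild type libraries where the choice had fixed their level.

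Median levels of the members at 0, 3 and 24 h were 540.3, 138 and 988 normalised reads in SGT2ox and 455, 219 and, as labelled, 888 in SGT1ami. Every 3 h library lay below every 0 h library for 150 members in SGT2ox, as for 36.7% of the eligible genes, and for 148 in SGT1ami, as for 40.4%. The lowest members nearly vanished at 3 h, with 9 below 10 normalised reads in SGT2ox and 2 in SGT1ami, where none was that low at 0 h or 24 h. How many eligible genes were that low at 3 h was not counted.

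The fall at 3 h shows in the part of each library that the members took up. In SGT2ox they held 0.551% ± 0.004 of the normalised reads at 0 h, 0.083% ± 0.002 at 3 h and 0.567% ± 0.003 at 24 h (mean ± SD, n = 3). Its wild type held 0.625% ± 0.004 at 0 h, 0.073% in each of the 3 libraries of 3 h, and 0.592% ± 0.002 at 24 h. In SGT1ami they held 0.418% ± 0.005 at 0 h, 0.150% ± 0.003 at 3 h and, in the labelled libraries, 0.565% ± 0.004 at 24 h, and in its wild type 0.424% ± 0.001, 0.122% ± 0.001 and 0.516% ± 0.003. No library of 3 h overlapped with one of 0 h or 24 h in either line, with those of SGT1ami at 24 h as labelled. The wild types did not overlap either, but the choice required their low level at 3 h, so their shares are only a description. The 100 most abundant genes of each library, which may differ between times, held more of the reads at 3 h. They held 32.0% ± 0.47 of the reads at 3 h against 27.1% ± 0.35 at 0 h in SGT2ox, and 25.1% ± 0.30 against 21.2% ± 0.12 in SGT1ami. Their part in the fall of the members was not tested.

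**Figure D2:**
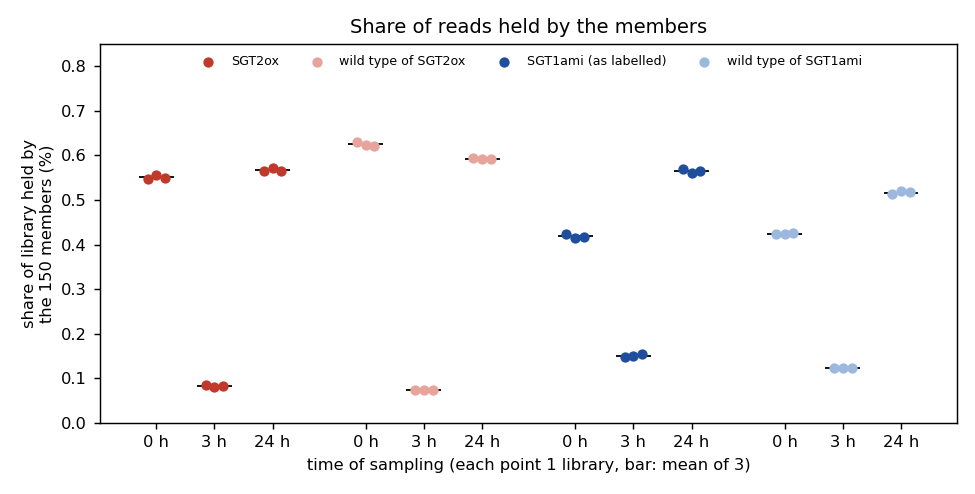
Share of all normalised reads of a library, in percent, held by the 150 members, with 1 point per library and a bar at the mean of 3 libraries, for each line, its wild type and each time. The 3 h libraries lie between 0.073% and 0.154%, and all others between 0.414% and 0.63%. In the wild types the choice of the members required a low level at 3 h.

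By the fitted change on the log2(value + 1) scale, Solyc01g096790 fell most in SGT1ami and, with Solyc01g006680 and other members within its SE, in SGT2ox. In SGT2ox it stood at 197, 256 and 172 at 0 h, then 0, 0 and 3.52 at 3 h, then 55.3, 41.4 and 49.9 by 24 h, and in SGT1ami at 78, 97.3 and 128 at 0 h, then 0, 1.84 and 1.83 at 3 h, then 20.5, 44 and 52 by 24 h in the labelled libraries (normalised reads per library). All 3 h libraries lay far below those of 0 h, and the 24 h libraries lay between. Only 3 reads in all were recovered for it at 3 h in SGT2ox, against 729 at 0 h, a ratio of 0 h over 3 h of 179, allowing for library size, with a 95% exact counting interval of 61.0 to 870.0. This interval takes reads as independent, and since a fragment mostly counted as a pair of reads it is too narrow even for counting error. The fitted changes at 3 h, which depend on the pseudocount at such low levels, were large in SGT2ox (limma log2 fold change -6.96 ± 0.52 SE, adjusted p = 4.2e-12) and in SGT1ami (limma log2 fold change -5.64 ± 0.45 SE, adjusted p = 8e-12). Its 24 h mean was below its 0 h mean in all 4 sets. The next identifier in the list was a member as well, and shared reads between such neighbours were not examined.

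The fitted fall of Solyc01g006680 in SGT2ox was within 1 SE of that of Solyc01g096790, and on the scale of group means it was the larger one, at -6.88. Its SGT2ox libraries held 1588, 1912 and 1673 at 0 h, then 9.24, 11.7 and 20 at 3 h, then 455, 504 and 531 by 24 h. The 3 h libraries were at or under 20 and those of 24 h regained part of the starting level (limma log2 fold change -6.94 ± 0.27 SE, adjusted p = 3.5e-18). In SGT1ami the same gene held 110.4, 123 and 91.9 at 0 h, then 37.1, 22.1 and 44.8 at 3 h, then 703, 721 and 764 by 24 h in the labelled libraries. It started far lower there, fell less (limma log2 fold change -1.67 ± 0.22 SE, adjusted p = 1.9e-07) and ended above its 0 h level. Both wild types had the same pattern as the line beside them, with 2012 ± 121, 7.21 ± 4.16 and 526 ± 10.8 at 0, 3 and 24 h for SGT2ox and 118 ± 32.5, 22.2 ± 6.06 and 565 ± 20.7 at 0, 3 and 24 h for SGT1ami (n = 3).

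In SGT1ami the second largest fitted fall was that of Solyc12g009875.1, with the next member within 1 SE of it. The SGT1ami libraries held 183, 166 and 193 at 0 h, then 4.63, 6.44 and 9.15 at 3 h, then 156, 169.8 and 177 by 24 h as labelled. All 3 h libraries were under 10 and the 24 h libraries overlapped with those of 0 h (limma log2 fold change -4.59 ± 0.24 SE, adjusted p = 5.7e-16). In SGT2ox the gene held 196, 224 and 201 at 0 h, then 8.09, 12.9 and 9.39 at 3 h, then 75.5, 96.7 and 64 by 24 h. It fell at 3 h (limma log2 fold change -4.25 ± 0.35 SE, adjusted p = 2.6e-11) and was still lower at 24 h than at 0 h (limma log2 fold change -1.40 ± 0.35 SE, adjusted p = 0.00065). Its neighbour in the list of identifiers was also a member, so their reads may be shared.

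The 2 members that did not pass at 3 h in SGT1ami were Solyc01g088400 and Solyc12g096810. Solyc01g088400 stood at 427, 422 and 475 at 0 h, then 404, 453 and 433 at 3 h, then 1114, 1107 and 1026 by 24 h in SGT1ami, where the libraries of 0 h and 3 h overlapped (limma log2 fold change -0.04 ± 0.07 SE, adjusted p = 0.65). Its wild type held 678 ± 39.3, 251 ± 4.1 and 1089 ± 69.9 at 0, 3 and 24 h (n = 3). SGT1ami was thus below its wild type at 0 h and above it at 3 h, a difference that was not tested because these wild type libraries chose the gene. In SGT2ox it stood at 1029.7, 909.8 and 1093 at 0 h, then 279.6, 218 and 157 at 3 h, then 1708, 1719 and 1852 by 24 h and fell at 3 h (limma log2 fold change -2.24 ± 0.12 SE, adjusted p = 3.4e-15). Solyc12g096810 stood at 187, 129 and 133 at 0 h, then 111, 107 and 131 at 3 h, then 378, 339.6 and 351 by 24 h in SGT1ami, with a 3 h library above the lowest one of 0 h (limma log2 fold change -0.35 ± 0.15 SE, adjusted p = 0.054). Solyc12g096810 passed under 9 other settings, with changes of -0.54 to -0.34, among them leaving out SGT1ami 0 h replicate 2 or 3 or 3 h replicate 3. Without SGT1ami 0 h replicate 1 its change was -0.18. Solyc01g088400 passed with library totals (limma -0.24, adjusted p = 0.0038). In SGT2ox Solyc12g096810 stood at 216, 258 and 199 at 0 h, then 49.7, 53.9 and 39.9 at 3 h, then 448, 506 and 482 by 24 h and fell at 3 h (limma log2 fold change -2.21 ± 0.14 SE, adjusted p = 9.1e-14).

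Nearly all members rose again by 24 h in the lines. In SGT2ox all 150 members were higher at 24 h than at 3 h, where 40.1% of the 22399 tested genes were, with a median log2 fold change of 2.57 (5.92-fold) and a range from 0.67 to 9.50. Of the members 149 were higher in the labelled SGT1ami libraries of 24 h than at 3 h, where 42.2% of 22286 genes were, with a median of 1.98 (3.95-fold) and a range from 0.10 to 5.30. At least 4-fold higher were 114 and 73 members, beside 12.1% and 10.7% of all tested genes. The comparisons of 3 h with 0 h and of 24 h with 3 h share the 3 h libraries and are not independent of each other. The member that did not pass was Solyc04g050620. In SGT1ami it stood at 1354, 1514 and 1440.2 at 0 h, then 685, 739 and 788 at 3 h, then 825, 755 and 786 by 24 h as labelled, so it fell at 3 h (limma log2 fold change -0.96 ± 0.06 SE, adjusted p = 2.4e-14) and the 24 h libraries overlapped with those of 3 h (limma log2 fold change 0.10 ± 0.06 SE, adjusted p = 0.12). Its wild type held 1074 ± 33.1, 407 ± 10.7 and 1044 ± 32.5 at 0, 3 and 24 h (n = 3). In SGT2ox the gene stood at 1876, 1805 and 1916 at 0 h, then 201, 195 and 191 at 3 h, then 927, 1001 and 952 by 24 h, a fall followed by a rise to a level between those of 3 h and 0 h.

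Most members ended above their starting level. In SGT2ox 108 members were higher at 24 h than at 0 h and 29 lower, among tested genes of which 40.3% were higher and 40.8% lower, and 13 did not pass. The median change was 0.70 on the log2 scale (1.63-fold), beside -0.02 over all tested genes, and 53 members were at least 2-fold higher and 16 at least 2-fold lower, where 22% and 20.2% of tested genes were. In the SGT1ami set as labelled 118 members were higher than at 0 h and 12 lower, where 42.7% and 40.1% of tested genes were, and 20 did not pass. The median was 0.81 (1.76-fold), with 57 members at least 2-fold higher and 4 at least 2-fold lower, beside 23.5% and 20.2%. The split depends on the scaling. With values scaled by library totals, which lowered the median of all tested genes to -0.22 in SGT2ox and -0.51 in the labelled libraries, 92 members were higher and 33 lower in SGT2ox, and 85 higher and 32 lower in the labelled libraries. Under that scaling 7621 of 22440 tested genes were higher and 10841 lower in SGT2ox. In the labelled libraries 6088 of 22304 were higher and 13075 lower. The median member then lay at 0.50 and 0.28. Both sets had the rise for 99 members, which is 91.7% of the SGT2ox rises, where 78.7% of all members rose in the labelled libraries, and 83.9% of the labelled libraries' rises, where 72% of all members rose in SGT2ox. Another 12 were lower in both and 11 had opposite calls. These overlaps were counted among the members only, not over all tested genes. The wild types, whose 24 h level entered the choice, had median changes of 0.53 and 0.52.

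**Figure D3:**
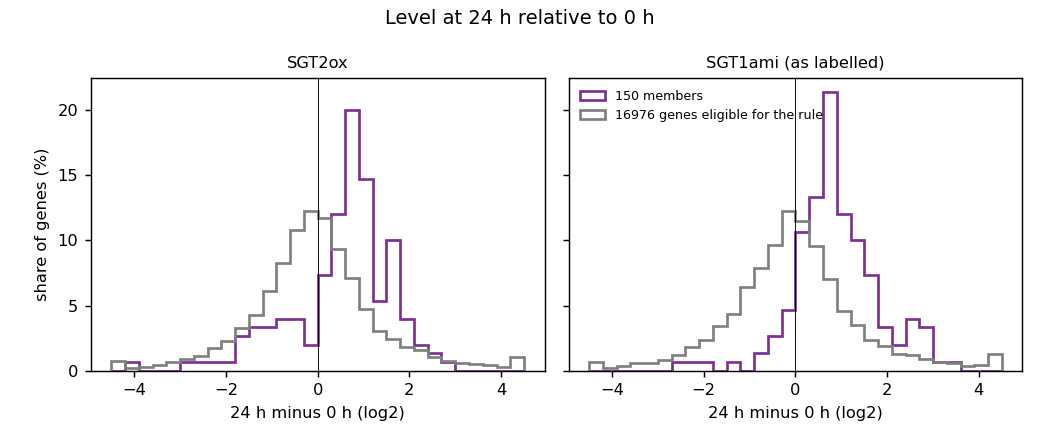
Change from 0 h to 24 h on the log2 scale in SGT2ox and in the SGT1ami set as labelled, as the share of genes in percent per interval of 0.3, for the 150 members and for all 16976 eligible genes (values beyond 4.5 are drawn in the outermost interval). The members centre on 0.70 and 0.81, and the eligible genes lie around 0.

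The dip was deeper in one line than in the other. The median member kept 27.9% of its 0 h level at 3 h in SGT2ox and 45.4% in SGT1ami. In the wild types beside them it kept 22.7% and 34.4%. These wild type libraries chose the members by the smaller of their depths. The contrast between the wild types is therefore shaped by the choice and is only a description. Applied to a line alone, the depth measure exceeded 0.5 for all 150 members in SGT2ox, where it did so for 10.4% of eligible genes, and for 144 in SGT1ami, where it did so for 6.33%. Its medians were 1.71 and 1.13. Every depth in SGT1ami uses the 24 h libraries as labelled and carries their doubt. A depth above 1, a 2-fold dip, was reached by 137 members in SGT2ox (4.58% of eligible genes) and 93 in SGT1ami (1.44%), and a depth above 2 by 52 (0.996%) and 16 (0.135%). The dip was deeper in SGT2ox than in SGT1ami for 125 members, or 83.3%, and for 46.6% of eligible genes. The difference of the 3 h change, SGT2ox minus SGT1ami, was tested in a fit of all 36 libraries. It was more negative in SGT2ox for 91 members and more positive for 8, where 23.3% and 27.7% of 22945 tested genes were, and 51 members did not pass. At least 2-fold were 55 of the negative differences (10.2% of tested genes) and 1 of the positive ones (5.92%). The median was -0.65, beside 0.04 over all tested genes, and with library totals -0.79 beside -0.10. Line and experiment coincide and cannot be told apart here.

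**Figure D4:**
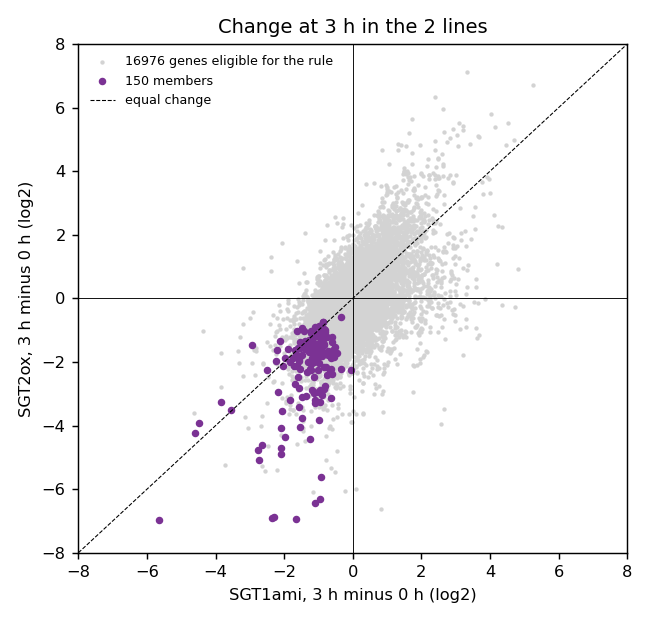
Fitted change from 0 h to 3 h on the log2 scale in SGT2ox (vertical) and SGT1ami (horizontal), with 1 point per gene, for 16976 eligible genes in grey and the 150 members in purple. Every member lies below 0 on both axes, and some members fall by more than 4 on the vertical axis and by less than 3 on the horizontal one.

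Solyc12g006240 had the most negative difference. In SGT2ox it held 2743, 2714 and 2787 at 0 h, then 37, 34 and 30.5 at 3 h, then 4896, 5225 and 5062 by 24 h, and in SGT1ami 724, 764 and 709 at 0 h, then 348, 346 and 432 at 3 h, then 6671, 6377 and 6434 by 24 h as labelled. All 3 h libraries of SGT2ox lay below those of SGT1ami, while at 0 h SGT2ox lay above SGT1ami, and the difference of the changes was -5.34 on the log2 scale (SE 0.17, adjusted p = 1.5e-27, limma). The 3 h libraries of each line lay below its 0 h libraries, and the 24 h libraries lay above them. Its wild types held 3542 ± 89.7, 39.5 ± 13 and 5338 ± 106 at 0, 3 and 24 h beside SGT2ox and 807 ± 20, 279 ± 23.5 and 6056 ± 108 at 0, 3 and 24 h beside SGT1ami (n = 3).

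Solyc03g026000 was next, with 266, 255 and 250.3 at 0 h, then 6.93, 0 and 2.35 at 3 h, then 122, 133 and 172 by 24 h in SGT2ox and 94.6, 94.9 and 93.5 at 0 h, then 37.1, 49.7 and 43.9 at 3 h, then 728, 640.1 and 742 by 24 h in SGT1ami as labelled. The difference was -5.33 on the log2 scale (SE 0.58, adjusted p = 2.4e-10, limma), and the 24 h libraries were below those of 0 h in SGT2ox and above them in the SGT1ami set. The wild type beside SGT2ox held 260 ± 14.4, 2.39 ± 2.42 and 139 ± 7.88 at 0, 3 and 24 h. That beside SGT1ami held 89.4 ± 21.1, 26.4 ± 6.84 and 773 ± 40.1 (n = 3). Solyc06g005680, named above for its score, showed the same kind of difference. It held 401, 453 and 432 at 0 h, then 13.9, 0 and 2.35 at 3 h, then 249.8, 208 and 218 by 24 h in SGT2ox and 276, 264 and 284 at 0 h, then 41.7, 56.1 and 70.4 at 3 h, then 413, 480.1 and 429 by 24 h in SGT1ami as labelled, and the difference was -4.57 on the log2 scale (SE 0.67, adjusted p = 2.4e-07, limma).

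Of the 8 members with the deeper fall in SGT1ami, Solyc05g007895.1 had the largest difference. In SGT2ox it held 90.1, 75.9 and 78.2 at 0 h, then 27.7, 28.1 and 30.5 at 3 h, then 187, 163 and 202 by 24 h, and in SGT1ami 149, 131 and 123.6 at 0 h, then 13, 17.5 and 20.1 at 3 h, then 202, 193 and 186 by 24 h as labelled. It started lower in SGT2ox and its 3 h libraries there lay above those of SGT1ami, a difference of 1.48 on the log2 scale (SE 0.30, adjusted p = 5e-05, limma). The wild type beside SGT2ox held 83.9 ± 8.92, 30.6 ± 12.2 and 153 ± 17.3 at 0, 3 and 24 h. That beside SGT1ami held 120 ± 7.23, 12.6 ± 3.51 and 151 ± 19.4 (n = 3). Solyc10g076290 followed, with 526, 566 and 562 at 0 h, then 214, 222 and 214 at 3 h, then 1302, 1198 and 1271 by 24 h in SGT2ox and 1125, 1243 and 1221 at 0 h, then 276, 267 and 278 at 3 h, then 1717, 1663 and 1715 by 24 h in SGT1ami as labelled. Its 3 h levels were closer to each other than its 0 h levels, and the difference was 0.78 on the log2 scale (SE 0.08, adjusted p = 1.8e-10, limma). The wild type beside SGT2ox held 621 ± 22.5, 241 ± 13.6 and 1690 ± 90.7 at 0, 3 and 24 h. That beside SGT1ami held 1095 ± 60, 249 ± 10.7 and 1561 ± 47.1 (n = 3).

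**Figure D5:**
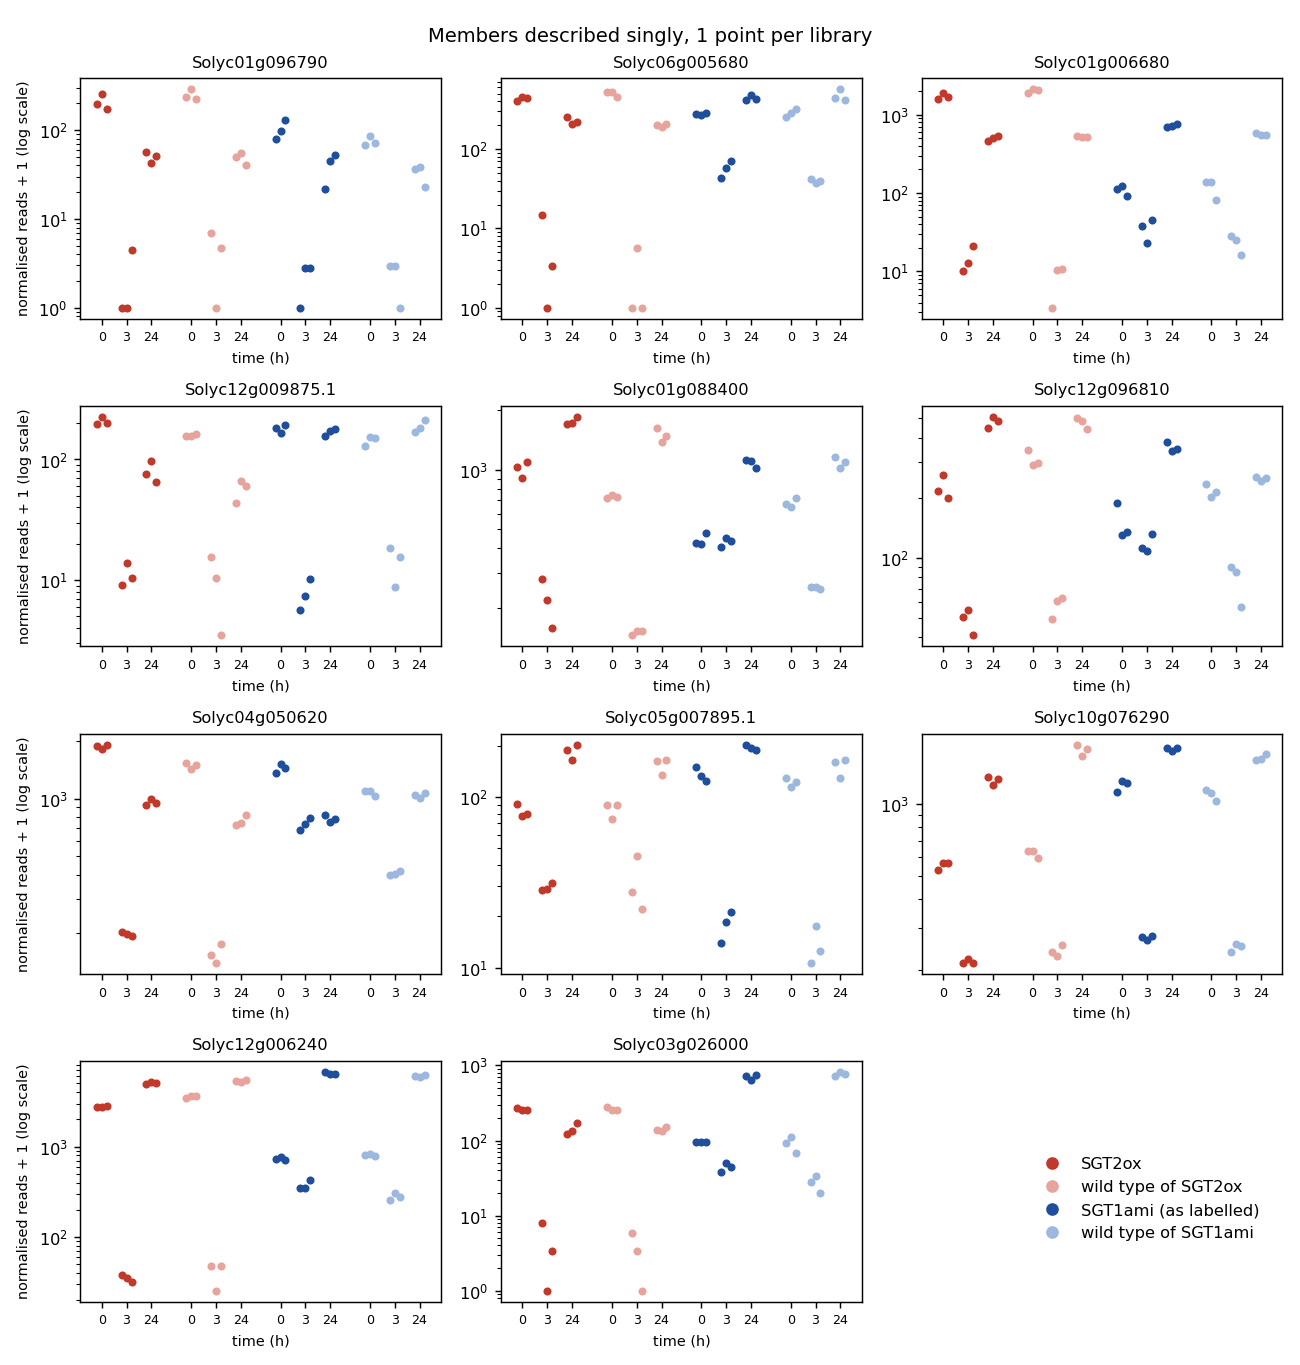
Normalised reads + 1 on a log axis for the 11 members described singly, with 1 point per library at 0, 3 and 24 h, in SGT2ox, its wild type, SGT1ami (as labelled) and its wild type. Solyc01g096790 is near the floor at 3 h in every set, and Solyc01g088400 and Solyc12g096810 overlap between 0 h and 3 h in SGT1ami.

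The levels of the lines themselves were also set side by side, without a test. At 3 h 36 members were at least 2-fold lower in SGT2ox than in SGT1ami (8.16% of eligible genes) and 4 at least 2-fold higher (7.2%), with a median difference of -0.50 on the log2 scale. At 0 h 29 members were at least 2-fold higher in SGT2ox (8.92%) and 12 at least 2-fold lower (7.37%), with a median of 0.15. At 24 h 8 were at least 2-fold higher (7.02%) and 17 at least 2-fold lower (7.25%) than in the labelled libraries, with a median of -0.06. The 2 wild types, which chose the members, were set side by side too, that of SGT2ox against that of SGT1ami. At least 2-fold lower were 26 members at 3 h (7.73%), 5 at 0 h (6.42%) and 23 at 24 h (10%). At least 2-fold higher were 5 (7.56%), 31 (7.75%) and 17 (9.39%). Across the 150 members the 3 h changes of SGT2ox and SGT1ami, which share no library, had a Pearson's r of 0.48 and a Spearman's rho of 0.35. For the changes from 0 h to 24 h, with the SGT1ami libraries as labelled, both were 0.69. These are descriptions across genes, which are not independent replicates.

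Beside its own wild type each line had the shallower dip for most members. The depth was smaller in SGT2ox than in its wild type for 119 members, with a median difference of -0.32 on the log2 scale. With the labelled 24 h libraries it was smaller in SGT1ami than in its wild type for 135, with a median of -0.39. At 3 h 97 members were higher in SGT2ox than in its wild type (median difference 0.11) and 135 higher in SGT1ami than in its wild type (0.29). At 0 h the lines were mostly lower, with 22 members higher in SGT2ox (median -0.22) and 44 in SGT1ami (-0.12), each against its wild type. At 24 h 70 members were higher in SGT2ox (-0.02) and 107 in the labelled SGT1ami libraries (0.13). The choice by these very wild type libraries favours low wild type values at 3 h and high ones at 0 h and 24 h, so none of these differences was tested. The counts were not taken over all eligible genes, so they cannot tell whether the members differ from other genes in this.

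The same rule applied to the lines in place of the wild types also took 150 genes, out of 618 with a score above 0.5 and 16966 eligible. It used the SGT1ami libraries of 24 h as labelled. Of these 150, 88 were members, which is 58.7% of either list. Members make up 0.884% of the eligible genes. By the naming convention of tomato gene models, in which the number after Solyc is that of the chromosome, members were found on all 12 chromosomes, from 0.479% of the eligible genes on chromosome 8 to 1.15% on chromosome 5. Next to each other in the sorted list of identifiers lay 5 pairs of members. Of the 205 eligible direct neighbours of members 10 were members, or 4.88%. Some of these pairs may be near-identical copies or overlapping genes whose reads the counting could not separate, which was not examined.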

How the data were processed

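Leaf poly(A) RNA was sequenced with DNBSEQ technology, per the labels. Tools listed by the submitters' processing notes are STAR, Trimmomatic, DESeq2 and featureCounts, without versions. No source used here names the genome build. The deposited signal of a gene is its read count divided by a size factor per library (0.779 to 1.311), as read from the values, of which 100% were whole reads within 0.01. Even numbers made up 78.8% of the values between 2 and 11 reads, so a fragment mostly counted as a pair of reads and fragments are fewer than reads. Whether counting used strand is not given. The 36 pairs of replicates differed beyond counting noise (mean chi-square of reads 2.65 to 6.19 per gene, where 1 is sampling noise, and at least 1.33 if every fragment was counted by both mates).

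Groups came from the sample titles. limma 3.58.1 (R 4.3.3; trend on the mean) was fitted to log2(value + 1) per experiment (18 libraries, 6 groups, 12 residual degrees of freedom) or over all 36 libraries (24 residual degrees of freedom), on genes that reached 10 in 3 or more libraries. Fold changes of low genes are understated by the pseudocount. P-values were Benjamini-Hochberg adjusted over all tested genes and called at 0.05. The labels call the triplicates biologically independent, and p-values measure the spread between these libraries only. The scripts were tested on simulated counts. Members, lists and tests were chosen with earlier results of these data known. The genes printed are the 2 highest scores, the largest falls per line, the largest called differences between lines in each direction, and the members that did not pass, which were named after their values were seen. Because no identifier matched a name, at most 2 rises and 2 falls are printed per comparison, and the planned gene lists, tissue markers and promoter motifs were not used here. Replicate numbers do not pair libraries (correlations of deviations between same-numbered libraries -0.016 to 0.017). Alternatives were TMM scaling, library totals, a pseudocount of 5, no filter, edgeR 4.0.16, DESeq2 1.42.0, the lines alone, a replicate block and leaving out each library.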

Additional observations from a re-analysis of the deposited data

Results flagged for a closer look

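The change at 3 h differed between SGT2ox and SGT1ami, by a test of the difference itself, for 91 members that were more negative in SGT2ox and for 8 that were more positive (limma, adjusted p under 0.05), where 23.3% and 27.7% of 22945 tested genes were. Among the genes described singly the differences, SGT2ox minus SGT1ami on the log2 scale, were -5.34 for Solyc12g006240, -5.33 for Solyc03g026000, -5.28 for Solyc01g006680, -4.57 for Solyc06g005680, -2.28 for Solyc04g050620, -2.20 for Solyc01g088400 and -1.86 for Solyc12g096810. They were 1.48 for Solyc05g007895.1 and 0.78 for Solyc10g076290. Each rests on 3 libraries per group, and line and experiment cannot be told apart.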

How the results depend on the processing

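The 7 counts of members called stayed within 1.5 times under every alternative run. Those for 24 h against 0 h pool both directions, and with library totals the lower calls went from 12 to 32 in the labelled SGT1ami set. The number of members is capped at 150 by the rule. Genes with a score above 0.5 numbered 674, and 1075 with library totals, 651 with TMM scaling and 661 with a pseudocount of 5. The median change at 3 h moved with library totals to -2.18 in SGT2ox and -1.34 in SGT1ami, where the median of all tested genes was -0.33 and -0.22, and with a pseudocount of 5 to -1.77 in SGT2ox. With library totals 145 members were higher and 1 lower at 24 h than at 3 h in the SGT1ami set as labelled. Of the 22304 genes tested there, 7113 were higher and 11530 lower. Leaving out each library gave medians at 3 h of -1.88 to -1.81 in SGT2ox and -1.17 to -1.13 in SGT1ami. Members lower at 3 h then numbered 150 in SGT2ox and 147 to 149 in SGT1ami, and 96 to 102 differed between the lines. Among all genes 6618 to 6728 were lower in SGT2ox, 6584 to 6681 lower in SGT1ami and 11184 to 11421 different. The genes tested numbered at least 22362, 22252 and 22917. The replicate numbers do not pair the libraries, and with the replicate block 150 members were lower in SGT2ox, 149 in SGT1ami and 99 differed between the lines. Among all genes the block gave 7052 of 22399, 7038 of 22286 and 11653 of 22945. On recovered reads edgeR's quasi-likelihood test called 150, 149 and 100, and among all genes 7250 of 22399 lower in SGT2ox, 7448 of 22286 lower in SGT1ami and 12130 of 22945 different. DESeq2 called 150, 149 and 102, and among all genes 7210 of 22399, 7343 of 22286 and 12375 of 22945. The change of Solyc01g088400 in SGT1ami turned positive without SGT1ami 0 h replicate 3 (0.02) and without SGT1ami 3 h replicate 1 (0.01), within a range of -0.08 to 0.02 over the libraries left out, and was called in neither. For Solyc01g096790 the difference between the lines passed with a pseudocount of 5 (-1.06), without SGT1ami 3 h replicate 1 (-1.82) and without SGT2ox 3 h replicate 3 (-2.05). With library totals 113 of the 150 members were among those the rule took, with TMM scaling 145 and with a pseudocount of 5 146. Members with few reads at 3 h, 9 under 10 normalised reads in SGT2ox and 2 in SGT1ami, have imprecise folds.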
